A study of Mus musculus with 9 samples.

Results

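The nuclear genes that encode subunits of the mitochondrial respiratory chain were followed across 9 arrays of mouse distal small intestine. Members were the probe sets whose platform annotation gave exactly 1 gene symbol starting with Ndufa, Ndufb, Ndufc, Ndufs, Ndufv, Sdha, Sdhb, Sdhc, Sdhd, Uqcr, Cox4i, Cox5, Cox6, Cox7 or Cox8, with the assembly factors named Ndufaf left out. The rule found 144 of the 45101 probe sets on the array, for 69 of the 18194 genes with a single symbol. By complex these were 76 probe sets of 34 complex I genes, 9 of 4 complex II genes, 16 of 8 complex III genes and 37 of 19 complex IV genes. The prefixes also took in 6 probe sets of 4 genes, Sdhaf1 to Sdhaf4, which encode assembly factors of complex II rather than subunits. Another 10 probe sets carried several symbols, at least 1 of them fitting, and were left out.

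The arrays hold whole gut tissue, so fewer cells of a type and less RNA per cell cannot be told apart. Every mouse had carried Bacteroides thetaiotaomicron, a common gut bacterium, for 10 days, and segments 10, 11, 12 and 14 of 16 were pooled for each RNA sample. The BP group had 3 arrays of tissue that the labels call Rag 1, with the added name BP, which they do not spell out. The Rag1 group had 3 arrays of Rag1 mouse tissue, Rag1 being the recombinase gene without which no mature B or T cells form. The B6 group had 3 arrays of wild type tissue. The series title asks about the impact of IgA, the main antibody of mucosal surfaces, on this tissue. The labels do not say that each array is a separate mouse, nor give the Rag1 allele, the sex or the age, so p-values measure only the spread between these samples.

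The respiratory chain passes electrons from nutrients to oxygen and pumps protons across the inner mitochondrial membrane. Complex I takes electrons from NADH and complex II, which is also the succinate dehydrogenase of the tricarboxylic acid cycle, takes them from succinate. Complex III passes them to cytochrome c, and complex IV passes them from cytochrome c to oxygen. Each complex except complex II also holds subunits encoded in mitochondrial DNA, which are not members. Absorptive cells of the small intestine and the muscle of the gut wall both depend on this pathway for ATP.

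Promoter windows of the members are shown because these genes are known to share binding letters for a few factors, among them NRF1, ETS factors such as GABP, and YY1. Windows of 250 bases before to 50 after the start site came from RefSeq on GRCm38.p6, and 56 of the 69 member genes matched. The letters GCATGCGC (NRF1), CCGGAAGT (ETS) and AAGATGGC (YY1), of 8 bases each, were searched on either strand. The NRF1 letters were in 6 member genes (10.7%), against 3.05% of 27025 genes with a window. The ETS letters were in 4 (7.14%, against 4.31%), and the YY1 letters were in 6 (10.7%, against 3.19%). All 6 genes with the YY1 letters encode complex I subunits: Ndufa3, Ndufa9, Ndufb8, Ndufc1, Ndufs4 and Ndufs7. At least 1 of the 3 motifs was in 15 member genes (26.8%), against 9.91% of all genes with a window. A match is a description of the letters and not evidence of binding. Examples from 5 genes follow, each from 120 bases before to 50 after the start site, 5′ to 3′ on the gene's strand, with the motif letters in capitals. Ndufs7 and Ndufs4 show the YY1 letters just after the start site, Cox8a the ETS letters, Sdhb the NRF1 letters, and the Cox7a1 window holds none of the 3.
Ndufs7, chr10:80249329-80249498, plus strand: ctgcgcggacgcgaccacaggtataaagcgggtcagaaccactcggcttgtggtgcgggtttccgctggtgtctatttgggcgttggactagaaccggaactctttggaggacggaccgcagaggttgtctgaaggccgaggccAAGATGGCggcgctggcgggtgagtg
Ndufs4, chr13:114388045-114388214, minus strand: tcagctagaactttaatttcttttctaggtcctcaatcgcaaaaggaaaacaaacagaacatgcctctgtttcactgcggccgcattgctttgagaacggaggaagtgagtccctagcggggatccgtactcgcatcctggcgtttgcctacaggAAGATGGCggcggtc
Cox8a, chr19:7217567-7217736, minus strand: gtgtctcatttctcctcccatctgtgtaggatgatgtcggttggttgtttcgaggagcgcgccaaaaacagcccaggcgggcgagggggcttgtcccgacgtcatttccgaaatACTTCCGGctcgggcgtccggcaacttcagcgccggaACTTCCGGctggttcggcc
Sdhb, chr4:140961151-140961320, plus strand: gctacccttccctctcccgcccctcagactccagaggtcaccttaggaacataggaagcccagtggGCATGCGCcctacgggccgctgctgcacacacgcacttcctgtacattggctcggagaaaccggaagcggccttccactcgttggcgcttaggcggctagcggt
Cox7a1, chr7:30184051-30184220, plus strand: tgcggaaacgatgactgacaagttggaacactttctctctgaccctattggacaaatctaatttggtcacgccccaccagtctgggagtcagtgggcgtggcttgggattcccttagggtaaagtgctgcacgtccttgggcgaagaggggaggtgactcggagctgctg

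Of the 144 member probe sets, 129 of 66 genes were bright enough to be tested, and 15 were too dim. Ndufb4, a complex I subunit, Cox7b2, a testis form, and Cox8b, a form of heart and skeletal muscle, had no tested probe set. Some BP arrays stood apart. The 3' to 5' signal ratio of the beta-actin control, which grows as RNA is shortened, was 14.2, 2.43 and 20.2 on BP replicates 1, 2 and 3, against 1.53 to 1.77 in Rag1 and 1.76 to 4.17 in B6. After normalization, the median within-group standard deviation of the member probe sets was 0.26 on the log2 scale in BP, 0.16 in Rag1 and 0.13 in B6, against 0.44, 0.21 and 0.23 over all tested probe sets. In the values below, intensities are as deposited, and log2 differences come from a limma fit to normalized log2(value + 16) with the standard error after ±. A probe set was called at a Benjamini-Hochberg adjusted p under 0.05 over 27022 probe sets.

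In BP against Rag1 tissue, a few complex I probe sets rose and Sdhc of complex II fell, while most members did not pass the test. Of 129 tested member probe sets, 9 were called higher (6.98%, against 1.1% of all tested probe sets) and 2 lower (1.55%, against 2.69%). The 9 belong to Ndufs7, Ndufv2, Ndufs4, Ndufa2, Ndufa5 and Ndufb11 of complex I and Cox7a2l, and both of the 2 belong to Sdhc. At an unadjusted p under 0.05 there were 47 member probe sets, 33 higher and 14 lower (36.4%, against 20.1%). All 3 BP arrays lay above all 3 Rag1 arrays for 38 member probe sets (29.5%, against 9.35%) and below them for 14 (10.9%, against 14.2%). Read on the brightest tested probe set of each gene, 3 of 66 genes were called higher (Ndufa2, Ndufa5 and Ndufb11) and 1 lower (Sdhc). These are 4.55% and 1.52% of the genes, against 1.1% and 2.69% of all tested probe sets. The balance of 9 higher to 2 lower was 4 to 3 with median centring and 5 to 4 on the values as deposited. The number of calls moved with single arrays. It was 0 without Rag1 replicate 1 or 2, 1 without BP replicate 3, 2 without Rag1 replicate 3, 4 without BP replicate 1, 5 without B6 replicate 1 or 3, 10 without B6 replicate 2 and 49 without BP replicate 2. With the actin ratio as a covariate it was 35, of which 4 were among the 11: Ndufs7, Ndufs4, Cox7a2l and a probe set of Ndufv2. The calls of Sdhc, Ndufa2, Ndufa5, Ndufb11 and the other Ndufv2 probe set were lost with the covariate. Of the 35, 24 were higher and 11 lower. On their brightest probe sets, Cox8a, Cox6b1, Cox6c, Sdha, Sdhb and Uqcrc1 were among those lower. Cox6b2, Ndufab1, Ndufb5 and Uqcrc2 were among those higher. Within groups the actin ratio varied most in BP, at 14.2, 2.43 and 20.2. The covariate fit therefore leans on BP replicate 2 set against BP replicates 1 and 3. It cannot tell RNA quality from other traits of BP replicate 2.

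The complexes differed in their medians. Over the 66 genes the median log2 difference of BP minus Rag1 was 0.07, against -0.02 over 13570 tested genes. It was 0.14 over the 33 tested genes of complex I, of which 22 were positive, and 0.05 over the 17 of complex IV. It was -0.09 over the 8 genes of complex III, of which 2 were positive, and -0.33 over the 4 genes of complex II, of which 0 were positive. The median over all 66 genes turned to -0.03 when arrays were centred on their median in place of quantile normalization, and to -0.01 on the values as deposited. Set against the Rag1 mean, the complex II median was -0.29, -0.51 and -0.22 in BP, -0.12 to 0.07 in Rag1 and -0.01 to 0.06 in B6. The complex I median was 0.24, 0.16 and 0.30 in BP, -0.10 to 0.12 in Rag1 and 0.15, 0.05 and 0.05 in B6. B6 replicate 1 thus lay close to BP replicate 2 for complex I. These medians are descriptions with no test.

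**Figure D1:**
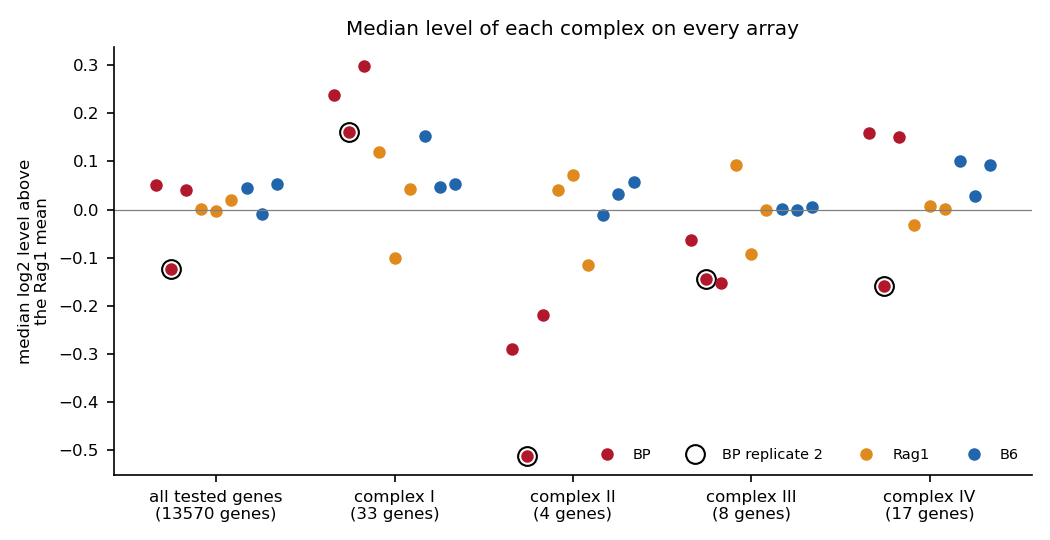
Each point is 1 array: the vertical axis gives the median, over the tested genes of a complex, of the normalized log2 level above the Rag1 mean of the same gene, for BP, Rag1 and B6 from left to right. The 3 BP arrays lie lowest for complex II, between -0.51 and -0.22, and highest for complex I, between 0.16 and 0.30.

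Among the catalytic core subunits of complex I, Ndufs7 and Ndufv2 each had probe sets that rose and a probe set that did not. Ndufs7 carries the last iron-sulfur cluster before ubiquinone. Its probe set 1424313_a_at read 1831, 1991 and 1743 on the BP arrays, 942, 817 and 888 on the Rag1 arrays and 1476, 981 and 1108 on the B6 arrays. All BP arrays lay above all Rag1 arrays, at 2.15 times their level (1.104 ± 0.17, adjusted p = 0.0113). The other Ndufs7 probe set, 1451312_at, read 1088, 1836 and 1204 in BP and 1794, 1161 and 1541 in Rag1, where the groups overlapped (-0.09 ± 0.18, adjusted p = 0.838). Ndufv2 holds an iron-sulfur cluster of the NADH-oxidizing module. Its probe set 1452692_a_at read 2139, 2152 and 2043 in BP, 1171, 855 and 1142 in Rag1 and 1638, 1148 and 1542 in B6. BP lay wholly above Rag1 (1.06 ± 0.17, adjusted p = 0.0133), and a further Ndufv2 probe set, 1438159_x_at, rose by 0.97 ± 0.20 (adjusted p = 0.0277). The brightest one, 1428179_at, read 1350, 1955 and 1212 in BP and 2240, 1505 and 2087 in Rag1, a log2 difference of -0.32 ± 0.16 with overlapping groups (adjusted p = 0.296).

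The core subunits Ndufv1, Ndufs1, Ndufs3 and Ndufs8 did not pass. Ndufv1, which binds NADH and flavin, had a log2 difference of 0.43 ± 0.15 in BP minus Rag1 (adjusted p = 0.13). Ndufs1, the largest iron-sulfur subunit, read 587, 764 and 536 in BP and 988, 756 and 837 in Rag1 (-0.40 ± 0.16, adjusted p = 0.191). The deposited intensities of Ndufs1 touch, with BP replicate 2 just above Rag1 replicate 2, while its normalized values do not overlap. Ndufs3 was at 0.14 ± 0.13 and Ndufs8, an iron-sulfur subunit that passes electrons on towards ubiquinone, at 0.36 ± 0.17 on its brightest probe set. Ndufs8 had 6 tested probe sets with differences between -0.12 and 0.39, and none passed.

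Among the accessory subunits of complex I, which surround the core, Ndufa2, Ndufa5 and Ndufb11 rose. Ndufa2 read 2559, 2592 and 2523 on the BP arrays, 1571, 993 and 1486 on the Rag1 arrays and 2013, 1360 and 1535 on the B6 arrays. The BP arrays were the 3 highest of the 9, and the difference from Rag1 was 1.00 ± 0.19 (adjusted p = 0.0207). Ndufa5, a subunit of the peripheral arm, read 1570, 1356 and 1366 in BP, 892, 756 and 751 in Rag1 and 1355, 1009 and 981 in B6. BP lay above Rag1 on every array (0.88 ± 0.20, adjusted p = 0.0355), and the second Ndufa5 probe set was at 0.27 ± 0.23 (adjusted p = 0.564). Ndufb11, an X-linked subunit of the membrane arm, read 3000, 3191 and 3076 in BP, 2246, 1899 and 2393 in Rag1 and 2551, 2026 and 2489 in B6. It rose 1.52-fold over Rag1 (0.61 ± 0.14, adjusted p = 0.0391), as did a further probe set (0.60 ± 0.14, adjusted p = 0.0406), whereas its other one was at -0.20 ± 0.16 (adjusted p = 0.543).

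Ndufs4, an accessory subunit whose loss causes complex I deficiency, had probe sets that differed in sign. Probe set 1438166_x_at read 279, 545 and 286 in BP and 190, 123 and 177 in Rag1, and rose by 1.195 ± 0.24 (adjusted p = 0.025). The brightest Ndufs4 probe set, 1448959_at, read 661, 796 and 555 in BP and 1014, 881 and 1077 in Rag1, with BP wholly below Rag1, but did not pass (-0.52 ± 0.15, adjusted p = 0.0855). Ndufb8, a membrane arm subunit often used as a marker of assembled complex I, was at 0.57 ± 0.19 (adjusted p = 0.114) and Ndufb5 at 0.66 ± 0.24 (adjusted p = 0.146). Ndufa9 was at -0.29 ± 0.26 (adjusted p = 0.6). Ndufab1, the mitochondrial acyl carrier protein, was at -0.07 ± 0.28 (adjusted p = 0.926), with BP replicate 2 at 2402 and the other BP arrays at 861 and 824.

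**Figure D2:**
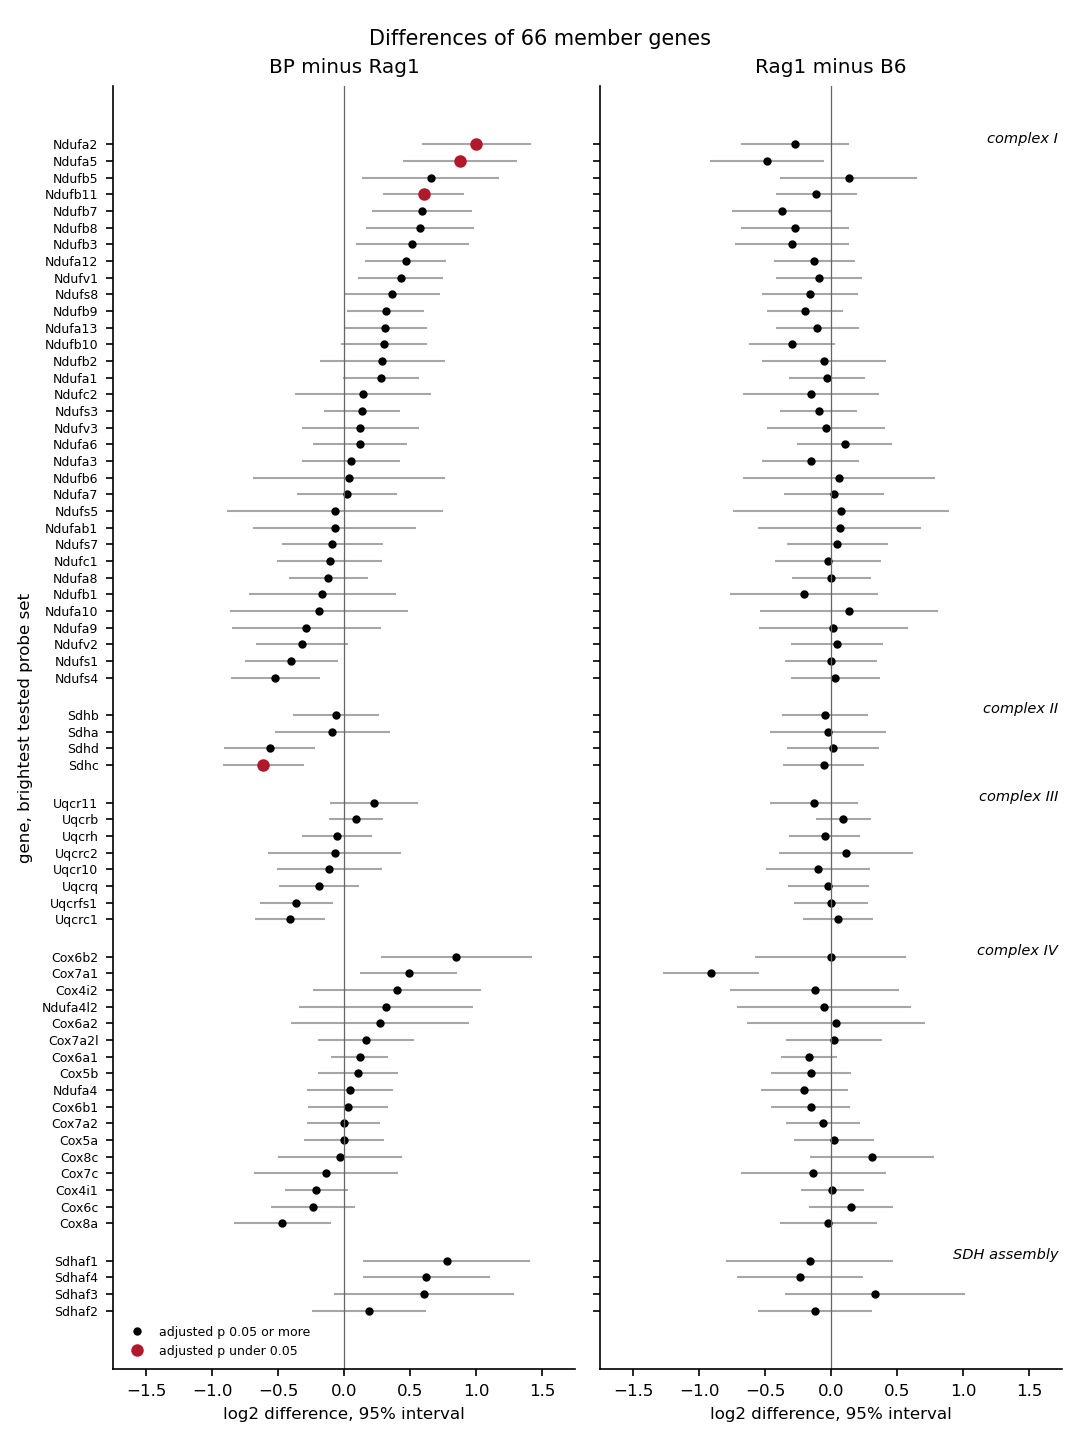
Log2 differences of the 66 tested member genes on their brightest tested probe set, with 95% intervals, for BP minus Rag1 on the left and Rag1 minus B6 on the right, grouped by complex down the page. Red points passed an adjusted p of 0.05: Ndufa2, Ndufa5 and Ndufb11 lie above 0 and Sdhc below 0 in the left panel, and no point is red in the right panel, where Cox7a1 is lowest at -0.91.

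Under the main settings complex II was the only complex with calls on the lower side in BP minus Rag1. They were 2 of its 7 tested probe sets, both of Sdhc (28.6%, against 2.69% of all). It did not stand alone in all settings. Leaving out BP replicate 2 gave 31 member calls higher and 18 lower. The lower ones included Ndufa9 and Ndufs4 of complex I, Uqcrc1 of complex III and Cox4i1 of complex IV. Uqcrc1, Cox8a, Cox6b1 and Cox6c were called lower under the actin covariate. Sdhc and Sdhd anchor succinate dehydrogenase in the membrane and bind ubiquinone with it. Probe set 1435986_x_at of Sdhc read 307, 677 and 288 on the BP arrays, 1099, 1013 and 938 on the Rag1 arrays and 968, 1397 and 887 on the B6 arrays. All BP arrays lay below all others, at 0.412 times the Rag1 level (-1.28 ± 0.24, adjusted p = 0.0203). With the actin ratio as a covariate the difference was -0.59 and did not pass (adjusted p = 0.082). The brightest Sdhc probe set, 1448630_a_at, read 1154, 1550 and 1192 in BP, 1975, 2261 and 1934 in Rag1 and 2156, 2214 and 1970 in B6, and was also lower (-0.61 ± 0.14, adjusted p = 0.0379). Both Sdhc probe sets thus moved the same way, with BP replicate 2 nearest to the other groups in the deposited values. Sdhd read 1186, 1970 and 1093 in BP and 2236, 2224 and 1951 in Rag1 on its brightest probe set, and did not pass (-0.56 ± 0.16, adjusted p = 0.0727). Its other probe set, 1437489_x_at, went the opposite way at 457, 1925 and 395 in BP and 302, 286 and 295 in Rag1 (1.34 ± 0.38, adjusted p = 0.0766). Sdha, the flavin subunit that oxidizes succinate, was at -0.09 ± 0.20 (adjusted p = 0.86), and Sdhb, the iron-sulfur subunit, at -0.06 ± 0.15 (adjusted p = 0.877). With the actin ratio as a covariate limma called both lower, Sdha at -0.68 (adjusted p = 0.0237) and Sdhb at -0.49 (adjusted p = 0.0341). The covariate fit leans on BP replicate 2. With only that BP array kept, Sdha was at -0.59 and Sdhb at -0.44. The 4 complex II assembly factors were all positive, from 0.19 to 0.78, and none passed.

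In complex III, 0 of 16 tested probe sets were called by limma in BP minus Rag1. Uqcrc1, a core subunit on the matrix side, read 2217, 2331 and 2135 in BP, 3263, 3256 and 3013 in Rag1 and 3055, 2998 and 2831 in B6. BP lay below every other array, but the difference from Rag1 did not pass (-0.41 ± 0.12, adjusted p = 0.085). Limma called Uqcrc1 lower with the actin ratio as a covariate (-0.55, adjusted p = 0.0307) and on the values as deposited (-0.51, adjusted p = 0.0453). Uqcrfs1, the Rieske iron-sulfur protein, was at -0.36 ± 0.13 (adjusted p = 0.139), also with BP wholly below Rag1. On their brightest probe sets Uqcrc2 was at -0.07 ± 0.23, Uqcrb at 0.09 ± 0.09 and Uqcrq at -0.19 ± 0.14, with adjusted p values of 0.909, 0.664 and 0.502. The other Uqcrc2 probe set was at 0.87 and the other Uqcrb one at -0.54. The 4 tested probe sets of Uqcrq ran from -0.81 to 0.33.

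In complex IV, 1 of 32 tested probe sets was called higher (3.12%, against 1.1% of all tested probe sets) and 0 lower. Cox7a2l, also known as a factor in the assembly of respiratory supercomplexes, read 1849, 3026 and 1847 in BP, 1259, 1017 and 1442 in Rag1 and 1267, 961 and 1428 in B6 on probe set 1421772_a_at. BP lay above Rag1 on every array (0.87 ± 0.19, adjusted p = 0.0322). The brightest Cox7a2l probe set was at 0.17 ± 0.17 (adjusted p = 0.647) and the third at 0.42 ± 0.17 (adjusted p = 0.194). Cox8a, the ubiquitous form of subunit VIII, read 3659, 2727 and 3397 in BP, 4844, 4512 and 5309 in Rag1 and 4990, 5036 and 4794 in B6, and did not pass (-0.47 ± 0.17, adjusted p = 0.146). Limma called Cox8a lower with the actin ratio as a covariate (-0.94, adjusted p = 0.00367) and on the values as deposited (-0.59, adjusted p = 0.0439). Cox6b2, a form best known from testis, read 193, 460 and 213 in BP and 161, 150 and 160 in Rag1 (0.85 ± 0.26, adjusted p = 0.094), with BP replicate 2 far above the other arrays. Cox4i1, the ubiquitous subunit IV that regulates the enzyme with ATP, was at -0.21 ± 0.11. Cox5a was at 0.00 ± 0.14 on its brightest probe set, while its 2 other probe sets were at 0.60 ± 0.15 and 0.59 ± 0.15 (adjusted p = 0.0545 and 0.0515).

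**Figure D3:**
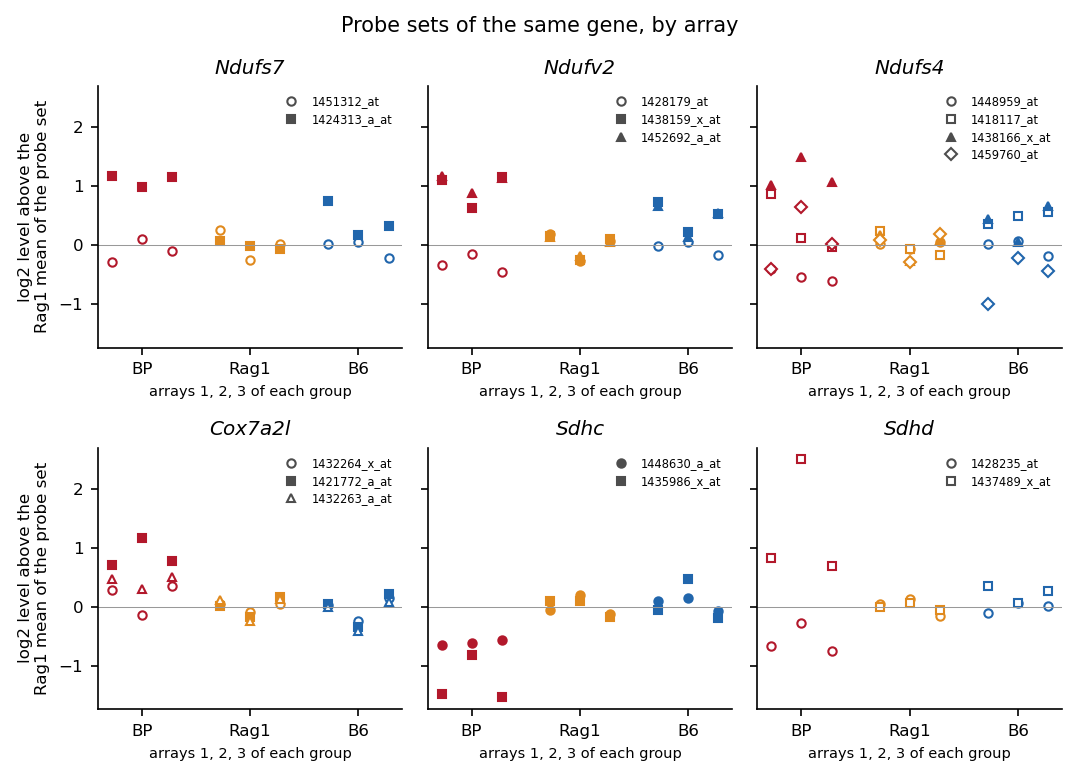
Normalized log2 level above the Rag1 mean of the same probe set (vertical axis), for every tested probe set of 6 genes on the BP, Rag1 and B6 arrays, with replicates 1, 2 and 3 from left to right in each group. Filled symbols mark probe sets called in BP minus Rag1: for Ndufs7, Ndufv2 and Ndufs4 the called probe sets lie above 0 in BP and another of the same gene does not, while both Sdhc probe sets lie below 0.

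Different probe sets of a gene often moved apart, and the calls lay in certain kinds of probe set. Of the 38 member genes with several tested probe sets, 23 had opposite signs in BP minus Rag1 (60.5%, against 60.3% of 5680 genes on the whole array). The suffix of a probe set's name marks its design: a plain _at matches a single transcript, _a_at matches several transcripts of a gene, _s_at matches several transcripts that may be of different genes, and _x_at holds probes that also match other sequences. None of the 61 plain member probe sets was called by limma in either direction (all plain probe sets: 0.541% higher and 2.2% lower). Among _a_at members 5 of 34 were called higher (14.7%, against 1.74% of all such probe sets), among _x_at members 3 of 23 (13%, against 6.06%), and among _s_at members 1 of 11 (9.09%, against 1.71%). The median log2 difference of BP minus Rag1 was -0.05 for plain members, 0.30 for _a_at members and 0.36 for _x_at members, against -0.06, -0.11 and 0.27 over all probe sets of these kinds. The part of probe set design in the calls was not tested.

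In Rag1 against B6 tissue no member passed the test. By limma, 0 of 129 member probe sets were called higher and 0 lower in Rag1 minus B6, against 0.0703% and 0.259% of all tested probe sets. At an unadjusted p under 0.05 there were 5, all lower in Rag1 (3.88%, against 5.57%). They belong to Cox7a1, Ndufa5, Ndufs7 and, with 2 probe sets, Ndufv2. The median over the 66 genes was -0.05, against -0.02 over all tested genes, and the 4 complexes had medians between -0.06 and -0.01. All 3 Rag1 arrays lay below all 3 B6 arrays for 22 member probe sets (17.1%, against 9%) and above them for 3 (2.33%, against 8.7%). Read on the brightest tested probe set of each gene, they lay below for 7 of 66 genes and above for 1. The 7 are 10.6% of the genes, near the 9% of all tested probe sets. Of the 22, 12 were of complex IV, from Cox5b with 5 probe sets, Cox6a1 and Cox6b1 with 2 each, and Cox7a1, Cox7c and Ndufa4 with 1 each. Apart from Cox7a1 these 12 differed by -0.50 to -0.06 on the log2 scale, and their lowest adjusted p was 0.962. The comparisons of BP with Rag1 and of Rag1 with B6 share the Rag1 arrays, which enter them with opposite sign.

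**Figure D4:**
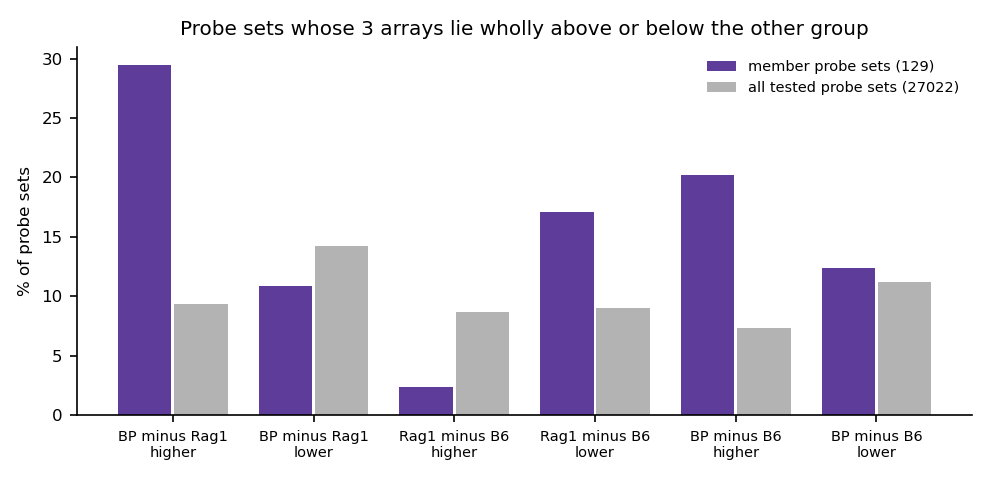
Percent of probe sets (vertical axis, from 0) whose 3 arrays in the first-named group lie wholly above (higher) or wholly below (lower) the 3 of the other, for the 129 tested member probe sets in purple and all 27022 tested probe sets in grey. Members stand at 29.5% against 9.35% for BP above Rag1, and at 2.33% against 8.7% for Rag1 above B6.

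Cox7a1, the form of complex IV subunit VIIa found in heart and skeletal muscle, had the lowest Rag1 minus B6 difference of the 66 genes. It read 888, 1108 and 784 on the BP arrays, 796, 524 and 734 on the Rag1 arrays and 1180, 1256 and 1351 on the B6 arrays. Every Rag1 array lay below every B6 array, at 0.533 times their level. The difference missed the threshold narrowly (-0.91 ± 0.17, adjusted p = 0.0515, unadjusted p = 0.000171). It passed when only the 6 arrays compared were fitted (adjusted p = 0.00673), with array weights (0.00192) and without BP replicate 2 (0.00319). It also passed with the lowest 60% left out (0.0473) and with the actin covariate (0.00862). With median centring, values as deposited, either other pseudocount, no filter, the replicate block or no intensity trend it did not pass. Nor did it pass on leaving out any other single array. Without BP replicates 1 and 3, a fit that left 1 BP array, the difference was -0.90. Cox7a2, the form of other tissues, read 5931, 5066 and 5885 in BP, 6300, 5498 and 5938 in Rag1 and 6143, 6100 and 6261 in B6. Its Rag1 minus B6 difference was -0.06, with a 95% interval of -0.34 to 0.22. The other tissue-specific forms Cox4i2, Cox6a2, Cox6b2 and Ndufa4l2 lay between -0.12 and 0.04 in Rag1 minus B6 and did not pass. Cox8c, another testis form, was at 0.31 ± 0.21 and Cox6c at 0.15 ± 0.14.

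The striated muscle markers did not share a direction in Rag1 minus B6, and limma called 0 of the 5 tested. Ckm, the creatine kinase of striated muscle and the brightest of them, read 104, 123 and 140 in BP, 517, 556 and 301 in Rag1 and 151, 218 and 181 in B6. The Rag1 arrays were the 3 highest for Ckm (1.13 ± 0.29 in Rag1 minus B6, adjusted p = 0.295). Tnni2 and Acta1 were also positive in Rag1 minus B6 (0.69 and 0.55), whereas Myh7 and Myh4 were negative (-0.48 and -0.17), as Cox7a1 was. Of 10 striated muscle markers, 5 were tested; Actn3, Mb, Myh1, Myh6 and Tnnt3 were too dim. Their summed intensity was 307 to 347 in BP, 534 to 903 in Rag1 and 335 to 458 in B6. The 10 smooth muscle markers summed to 9122 to 16930 in BP, 11760 to 15280 in Rag1 and 11240 to 13190 in B6. Of the 5 fat markers only 1, Adipoq, was bright enough to be tested. The part of muscle content in the Cox7a1 result was not tested.

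**Figure D5:**
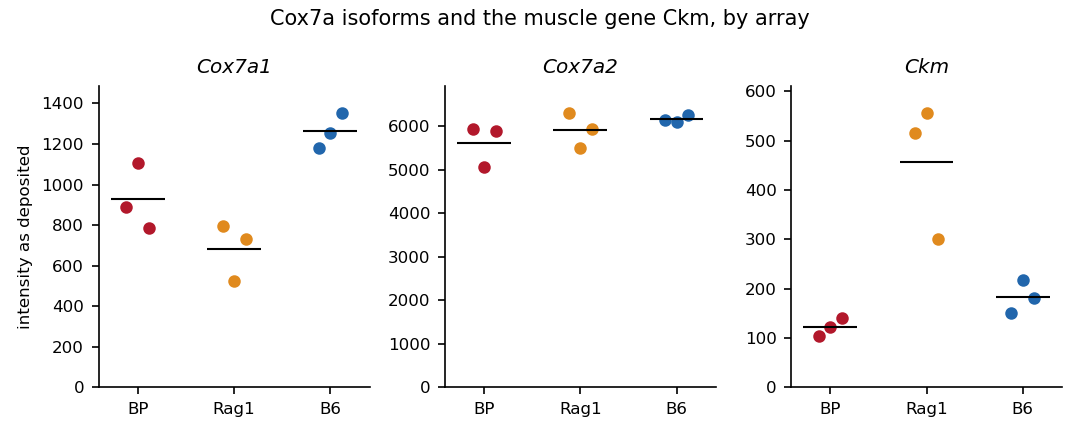
Intensities as deposited (vertical axis, from 0) of Cox7a1, Cox7a2 and the striated muscle gene Ckm on the BP, Rag1 and B6 arrays; points are arrays and lines are means of 3. Cox7a1 is lower on the Rag1 arrays (524 to 796) than on the B6 arrays (1180 to 1351), Cox7a2 spans 5066 to 6300 over all arrays, and Ckm is highest in Rag1.

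Between BP and B6, Sdhc was the single member called. Of 129 member probe sets 0 were called higher by limma (against 0.0592%) and 1 lower (0.775%, against 0.574%), namely Sdhc on probe set 1435986_x_at, which fell by 1.35 on the log2 scale (0.393 times B6, standard error 0.24, adjusted p = 0.0306). The brightest Sdhc probe set was at -0.67 ± 0.14 (adjusted p = 0.0625). This call was lost without any one of the Rag1 or B6 arrays and without BP replicate 1 or 3, with 0 member calls each, and 21 member probe sets were called without BP replicate 2. At an unadjusted p under 0.05 there were 33, of which 21 were higher and 12 lower (25.6%, against 14.6%). BP lay wholly above B6 for 26 (20.2%, against 7.36%) and wholly below for 16 (12.4%, against 11.2%). The median over the 66 genes was 0.02, against -0.04 over all tested genes. It turned to -0.19 with median centring, to -0.04 on the values as deposited, and to -0.03 both with the actin ratio as a covariate and without BP replicates 1 and 3. Complex II was again negative for all 4 genes, with a median of -0.33.

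The precision of 3 arrays per group set how small a change could be bounded. The 95% interval of a gene's difference reached a median of 0.37 to either side on the log2 scale. It lay wholly within a 1.5-fold change in either direction for 27 of 66 genes in BP minus Rag1, 43 in Rag1 minus B6 and 31 in BP minus B6.

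BP replicate 2 gave a different profile from the other BP arrays in these genes. Over the 129 tested member probe sets the median absolute log2 difference was 0.09 between BP replicates 1 and 3, 0.44 between replicates 1 and 2 and 0.43 between replicates 2 and 3. Within Rag1 these values were 0.11 to 0.25 and within B6 0.12 to 0.19. BP replicate 2 lay more than 1 log2 unit from the mean of the other BP arrays for 14 member probe sets (10.9%, against 22.9% of all tested probe sets). BP replicate 2 was the higher in 13 of these 14, and in 3261 of 6193 such probe sets over the whole array. The largest gaps were in Ndufb5, where probe set 1448589_at read 484, 2607 and 427 on the 3 BP arrays, and in Ndufs8, where 1423907_a_at read 566, 2594 and 511. Ndufab1 on probe set 1428160_at went the other way, at 346, 98.6 and 390. Replicates 1 and 3 are the arrays with the high actin ratios, and the part of RNA quality in these differences was not tested.

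Other genes of mitochondrial energy metabolism were read in BP minus Rag1, where 1.1% of all tested probe sets were called higher and 2.69% lower. Of 18 tested ATP synthase genes 0 were higher and 1 lower, Atp5a1, at 3226, 3808 and 2909 in BP and 5837, 5122 and 5394 in Rag1 (-0.59 ± 0.13, adjusted p = 0.0315). Of 5 genes of cytochrome c and electron transfer 1 was lower: Cycs, cytochrome c itself, read 1733, 2779 and 1416 in BP and 3786, 3965 and 3463 in Rag1 (-0.85 ± 0.18, adjusted p = 0.0318). Of 13 tricarboxylic acid cycle genes 1 was lower, Ogdh of the oxoglutarate dehydrogenase complex, which was also below B6 (-0.92 ± 0.17, adjusted p = 0.0189, and -1.03 ± 0.17, adjusted p = 0.0221). Of 39 assembly factors 1 was higher, Cox17, a copper chaperone for complex IV (0.71 ± 0.15, adjusted p = 0.0261). These 39 include Sdhaf1 to Sdhaf4, which are also members. Of 76 mitochondrial ribosome genes 4 were higher, Mrpl39, Mrpl44, Mrpl52 and Mrps18c, with differences of 0.85 to 1.21. BP lay wholly above Rag1 for 25 of these 76 genes and wholly below for 8, against 9.35% and 14.2% of all tested probe sets. None of 13 regulators, such as Ppargc1a, Nrf1 and Tfam, was called by limma. In Rag1 minus B6, limma called 0 genes of these lists.

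Tissue markers were read on the same arrays. Of 12 enterocyte markers 7 were positive in BP minus Rag1, with a median of 0.01, and 1 was called, Epcam, which was lower (-0.47 ± 0.11, adjusted p = 0.0405). The enterocyte markers ran from Epcam to Cdx2 at 0.69. BP lay wholly below Rag1 for 5 of the 12 and wholly above for 1, against 14.2% and 9.35% of all tested probe sets. Of 10 smooth muscle markers 3 were positive, Lmod1, Acta2 and Cnn1 (0.46, 0.34 and 0.28), the median was -0.25, and Myh11 and Des were called lower (-1.51 ± 0.25 and -0.69 ± 0.17). Of the 5 tested striated muscle markers 0 were positive and Ckm was called lower (-1.66 ± 0.29, adjusted p = 0.0169). Over all tested probe sets 2.69% were called lower. The summed enterocyte markers were 59340 to 66400 in BP, 67040 to 69110 in Rag1 and 69970 to 73530 in B6. Plasma and B cell markers summed to 244 to 338 in BP, 218 to 267 in Rag1 and 3313 to 9509 in B6. The brightest probe set of Xist, chosen after its values were seen, read 36.0, 624 and 1735 in BP, 5.84 to 24.1 in Rag1 and 1086 to 1539 in B6, so sex and group cannot be told apart between Rag1 and B6. The BP arrays differed among themselves in Xist, with replicate 1 near the Rag1 arrays. Of the member genes 2 are X-linked, Ndufb11 and Ndufa1, and Ndufa1 was at 0.28 ± 0.13 in BP minus Rag1. The part of these differences in tissue and sex in the member results was not tested.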

How the data were processed

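The deposited table held linear intensity values of 45101 probe sets, from 1 to 21694, made by the authors with software not given in the sources used here. Per the labels' protocols, biotinylated cRNA came from 20 µg of total RNA. Columns were matched to samples by title, with 0 unmatched. The members and gene lists were chosen with earlier results of these data known. Trimmed means differed by more than 10%, so log2(value + 16) was quantile-normalized. The 64 control probe sets and the lowest 40% by mean over 9 arrays were left out, which kept 27022. Differences came from limma 3.58.1 in R 4.3.3 (intensity trend, all 9 arrays in 1 fit, two-sided, Benjamini-Hochberg over all tested probe sets). Each gene was read on the brightest of its tested probe sets. Intervals are limma's, and array number limits their precision. Symbols came from the platform annotation, and all 144 members matched RefSeq.

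Genes were named by a rule: called genes, the 3 highest and 3 lowest per comparison, fixed genes by role, isoform pairs, and genes whose probe sets differ in sign with a call. Ndufa1 and the probe sets that set BP replicate 2 apart were chosen after their values were seen. Alternatives were normalization, pseudocount, filter, arrays fitted, replicate block, trend, array weights, actin ratio, a stricter threshold, averaging probe sets and leaving out arrays. Same-numbered arrays correlated above 0.1 in 1 of 9 pairs. The labels do not say that numbers pair arrays, and with 3 arrays per group this check cannot exclude pairing. The planned comparison of isoform proteins was not run. A gene fixed by role is not reported here.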

Additional observations from a re-analysis of the deposited data

Results flagged for a closer look

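The Dap control probe set, a bacterial sequence that takes no part in the comparisons, read 1019 on BP replicate 2 and 8.14 to 19.1 on the other 8 arrays. This is the array that lay apart from the other BP arrays in the member probe sets.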

How the results depend on the processing

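In BP minus Rag1, where 11 member probe sets were called, the count was 0 at an adjusted p of 0.01. It was 7 with median centring (4 higher, 3 lower) and 9 on the values as deposited (5 higher, 4 lower). It was 14 with the lowest 60% left out, 2 with only the groups compared and 4 without the intensity trend. It was 28 with array weights, 35 with the actin ratio as a covariate, and 0 to 49 on leaving out 1 array. In Rag1 minus B6 (0 called) it was 1 with the lowest 60% left out, 1 with only the groups compared, 2 with array weights, 1 with the actin covariate and 0 to 1 on leaving out 1 array. In BP minus B6 (1 called) it was 0 at 0.01, 3 with median centring, 0 as deposited, 2 with the lowest 60% left out, 0 with only the groups compared, 0 without the trend, 7 with array weights, 31 with the covariate and 0 to 21 on leaving out 1 array. Alternatives chosen after seeing the data left out BP replicates 1 and 3 (40, 1 and 40 calls in the 3 comparisons) or the 4 arrays with an actin ratio above 3 (42 in BP minus Rag1 and 24 in BP minus B6). The replicate block gave 9, 0 and 1 calls, the 9 all among the 11. The labels do not say that its numbers pair the arrays. Pseudocounts of 1 and 64 and no filter gave 8 to 11 calls in BP minus Rag1. The median gene difference of BP minus Rag1 moved to 0.16 with probe sets averaged, -0.033 with median centring, -0.0096 as deposited and 0.047 to 0.170 on leaving out 1 array. With median centring it was -0.14 in Rag1 minus B6 and -0.19 in BP minus B6.

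Genes that turned were Cox6b1 in BP minus Rag1 (-0.41 with the covariate), Uqcrc2 (0.65 with the covariate) and Ndufab1 (0.84 with the covariate, 0.71 without BP replicates 1 and 3, 0.71 without the 4 arrays; in BP minus B6 0.61 and 0.78). The causes were not tested. Of the probe sets called in BP minus Rag1, over 22 other settings Ndufs7 was called in 20, Ndufv2 (1452692_a_at) in 19, Sdhc (1435986_x_at) and Ndufs4 in 15 each, Ndufa2 in 14, Cox7a2l in 11, Ndufv2 (1438159_x_at) in 10, Ndufa5 and Sdhc (1448630_a_at) in 9 each, and Ndufb11 in 8 (1455911_x_at) and 7 (1416056_a_at). The 22 settings include the fits that kept only BP replicate 2 in BP, whose calls rest on 1 BP array. The fit without the 4 arrays also kept only 1 B6 array. Array number, the spread of the BP arrays and dim signal limit small changes.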
